A study of Capra hircus with 6 samples.

Results

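Cell-cell junction genes were examined in dermal papilla cells (DPCs) of goat secondary hair follicles with and without all-trans retinoic acid (ATRA), the vitamin A metabolite that activates the retinoic acid receptors. Members were the rows of the deposited count table whose identifier or gene symbol named a cadherin (CDH), protocadherin (PCDH), claudin (CLDN), connexin (GJA to GJE), desmoglein (DSG) or desmocollin (DSC). The rule found 71 of 15944 genes, namely 13 cadherins, 33 protocadherins, 12 claudins, 11 connexins and 2 desmosomal cadherins. Of these, 48 were listed under their own symbol and 23 protocadherins under a LOC number with the symbol beside it.

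The cells were wild-type primary cultures grown from the skin of Albas cashmere goats aged 3 years, used at passages 4 to 7. The ATRA-treated group (3 libraries) received ATRA at 100 µM for 24 h, and the control group (3 libraries) was cultured without it. The methods of the study name 3 animals for the drug treatment but do not say whether both groups came from the same ones, so p-values measure the spread among these libraries. All 6 libraries carry the same batch label.

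Cadherins are calcium-dependent adhesion molecules that bind the same cadherin on the next cell and hold the actin cytoskeleton through catenins. Claudins form the sealing strands of tight junctions in epithelia, connexins form the channels of gap junctions, and desmogleins and desmocollins are the cadherins of desmosomes. Mesenchymal cells such as DPCs are known to carry N-cadherin (CDH2), cadherin-11 (CDH11) and connexin 43 (GJA1), whereas E-cadherin (CDH1), desmosomal cadherins and most claudins mark epithelia. Protocadherins are a large related group of weaker adhesion and recognition molecules, many of which lie side by side in 3 gene clusters named alpha, beta and gamma.

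Libraries held 35532339 to 38012771 counts, and no pair within a group matched within sampling noise (their chi-square over its degrees of freedom was 5.01 to 18.4). A count of 0 still allows 3 counts, which is 0.0680 to 0.0967 normalized CPM (counts scaled to a common library size) depending on the library. These limits cover counting error only. Normalized CPM was scaled by the TMM method of edgeR. Of 15 dermal papilla and fibroblast markers, 11 were tested and all 11 were lower with ATRA, beside 38.7% of all genes tested. The summed level of the 15 was 64887 to 67463 CPM in the control group and 2986 to 3084 CPM in the ATRA-treated group. SOX2, in the list but not tested, had 5, 0 and 2 counts in the control libraries and more with ATRA (10, 16 and 9). PROM1, ALPL and CORIN had at most 1 count in any library, so their RNA was close to absent at this depth. The paper reported positive staining of these cells for CD133, the protein of PROM1, and for alpha-smooth muscle actin. Staining measures protein and not RNA. The RNA of alpha-smooth muscle actin, ACTA2, had a mean of 6582 CPM in the control group and 8.37 CPM with ATRA. VCAN went from 1641 to 32.4 CPM and LEF1 from 16.1 to 11.1 CPM. In bulk RNA, fewer cells of a type and less RNA per cell cannot be told apart.

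Members fell more often than they rose. The expression filter of edgeR passed 32 of the 71 members, and with ATRA 6 of them were higher and 17 lower (adjusted p below 0.05 by edgeR's quasi-likelihood test with Benjamini-Hochberg adjustment over 12588 genes). That is 18.8% and 53.1% of the members tested, beside 40.9% higher and 38.7% lower among all genes tested. With a further threshold of more than 2-fold (an absolute log2 fold change, log2FC, above 1), 5 members were higher (15.6%) and 11 lower (34.4%), beside 13.7% and 17.3% of all genes. The ATRA and control libraries did not overlap for 23 of the 32 members (71.9%), against 80.1% of all genes tested. The median log2FC was -0.57 over the members tested and 0.04 over all genes. Since 6 members passed the filter only through the ATRA libraries and 1 only through the control libraries, these counts describe the tested members and not all 71. Among the members called higher, only CDH6 passed the filter in both groups. CDH12, CLDN3, CLDN4, CLDN6 and PCDH1 passed it through the ATRA libraries alone, so the share of higher members follows in part from the filter.

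**Figure D1:**
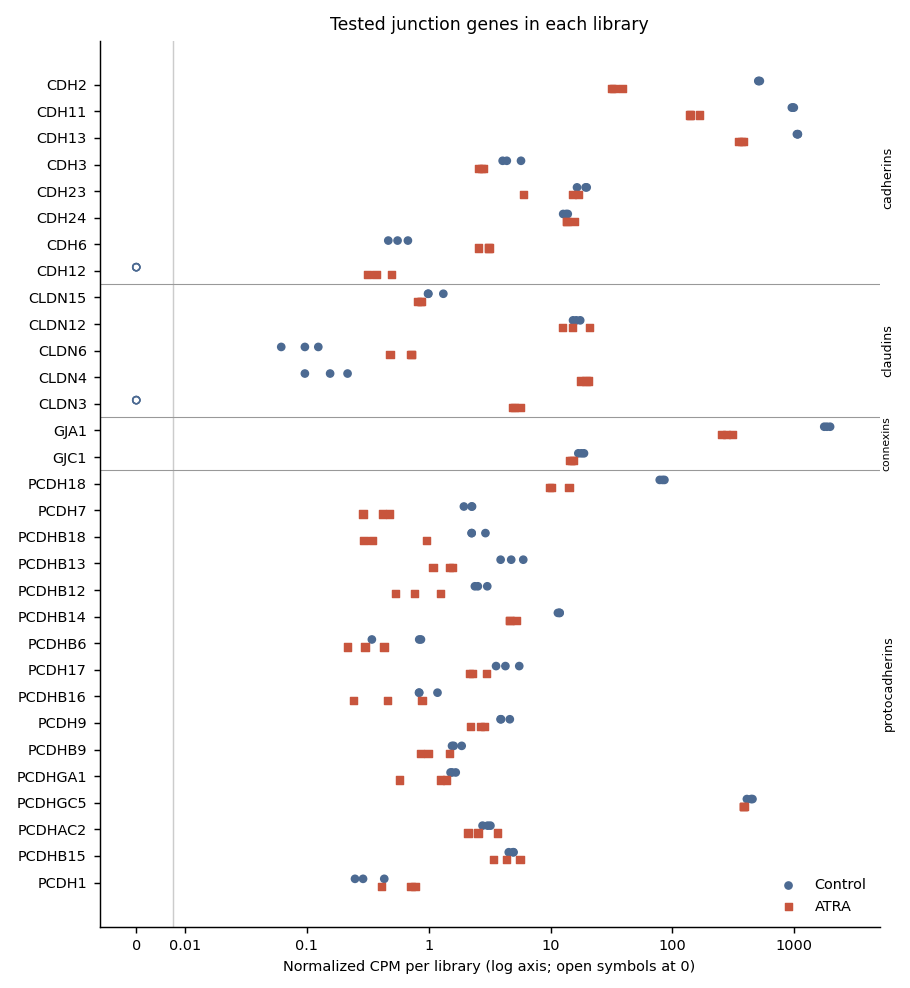
Normalized CPM of 31 tested members in each of the 6 libraries on a log axis, with control libraries as circles, ATRA libraries as squares and values of 0 as open symbols at the left. For CDH2, CDH11, CDH13 and GJA1 every ATRA library lay below every control library, whereas CLDN3 and CLDN4 lay at or near 0 in the control group only.

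The abundant cadherins of the control cells all fell. Among the classical type I cadherins, CDH2 encodes N-cadherin, the main adhesion cadherin of mesenchymal and neural cells. It had 15725, 16519 and 16754 counts in the control libraries and 1372, 1700 and 1351 in the ATRA libraries. Its level fell from 513 ± 7.73 to 34.3 ± 3.69 CPM (SD, n = 3 each), 15.0-fold lower, with a log2FC of -3.90 (standard error 0.0739, edgeR adjusted p = 8.20e-19). The 3 ATRA libraries lay together far below every control library, and CDH2 had the lowest log2FC of all members tested.

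CDH11, a type II cadherin of fibroblasts and osteoblasts, had 30178, 30870 and 31826 counts in the control libraries and 5994, 7319 and 5802 with ATRA. The level went from 972 ± 18.2 to 148 ± 15.3 CPM (SD, n = 3 each), 6.56-fold lower (log2FC -2.71, standard error 0.0715, edgeR adjusted p = 8.81e-17). CDH13, the T-cadherin that is held in the membrane by a lipid anchor and lacks the tail that binds catenins, fell less. Its counts were 33175, 33962 and 34311 without ATRA and 14971, 16879 and 15315 with it, a 2.90-fold difference in level (log2FC -1.54, standard error 0.0586, edgeR adjusted p = 2.36e-14). For each of these cadherins the groups were apart by many times the spread between replicates. CDH3 encodes P-cadherin, which is known from the hair follicle epithelium. It had 136, 131 and 184 counts in the control group and 122, 114 and 113 in the ATRA-treated group, and its log2FC was -0.80 (standard error 0.167, edgeR adjusted p = 0.000272). With scaling by library size only, the log2FC of CDH3 was -0.32 and no longer passed the test (adjusted p = 0.0835).

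A pair of type II cadherins rose at low levels. CDH6, a cadherin of the embryonic kidney and neural crest, had 21, 18 and 15 counts in the control libraries and 135, 114 and 128 with ATRA. It rose from 0.567 ± 0.105 to 2.93 ± 0.303 CPM (SD, n = 3 each), 5.18-fold (log2FC 2.37, standard error 0.241, edgeR adjusted p = 4.99e-08). CDH12, a brain cadherin, was at 0 in all control libraries and had 16, 22 and 13 counts in the ATRA libraries, which makes it at least 4.08-fold higher against a floor of 3 counts per library (edgeR adjusted p = 2.60e-05). For both genes no ATRA library overlapped a control library. CDH12 had passed the expression filter through its ATRA libraries alone, so its call and its lack of overlap follow in part from that filter.

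CDH23 and CDH24 passed the test in neither direction. CDH23, a cadherin of the hair cells of the ear, had 615, 628 and 530 counts in the control libraries and 730, 264 and 630 in the ATRA libraries. The library of ATRA replicate 2 was far below the other ATRA libraries (log2FC -0.55, standard error 0.417, edgeR adjusted p = 0.280). Without it the log2FC was -0.22 with an adjusted p of 0.0354. CDH24 had 411 to 445 counts in the control group and 566 to 685 with ATRA, and its log2FC was 0.10 (standard error 0.0961, edgeR adjusted p = 0.327). It passed as higher with library size only, at a log2FC of 0.58.

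The cadherins that were not tested were close to absent in both groups. CDH1, which encodes E-cadherin, was at 0 in all control libraries and had 2, 1 and 2 counts in the ATRA libraries. CDH5, the VE-cadherin of endothelial junctions, had 1 count in ATRA replicate 2 and 0 elsewhere. CDH15, CDH17 and CDH26 had at most 3 counts in any library. All 5 lay at or under the floor, so no fold was computed and a difference was not detectable at this depth. In the order of genes in the RefSeq table of the goat assembly ARS1.2, CDH3 and CDH1 lie with 1 entry between them and CDH11 and CDH5 with 2, so the near-absent and the expressed member of each pair are neighbours.

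The summed level of the 13 cadherins fell from 2585 ± 32.7 to 582 ± 28.4 CPM (SD, n = 3 each), 4.44-fold lower. Because the members fell to different degrees, the make-up of the remaining cadherin reads shifted. CDH2 took 19.8% ± 0.224 of them without ATRA and 5.88% ± 0.357 with it (SD, n = 3 each). CDH13 went from 41.1% ± 0.261 to 62.9% ± 0.944 (SD, n = 3 each). Reads are not divided by gene length here, so such shares compare groups and not genes.

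**Figure D2:**
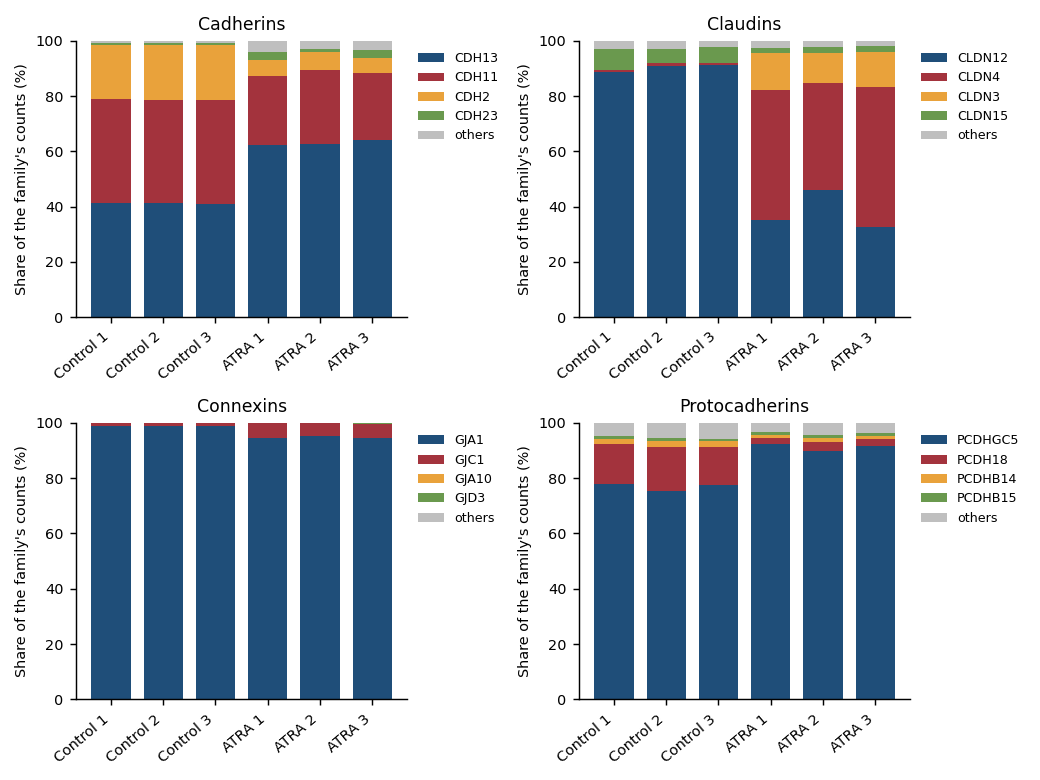
Share of each family's counts (percent) taken by 4 of its genes and by all others, in each of the 6 libraries. CDH13 held the larger part of cadherin reads with ATRA, CLDN4 and CLDN3 appeared among the claudins with ATRA, and GJA1 and PCDHGC5 led their families in all 6 libraries.

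Among the claudins 3 genes rose from at or near 0 counts. Of 12 listed, 5 were tested, with 3 passing as higher and 0 as lower, beside 40.9% and 38.7% of all genes. The 3 had passed the filter through the ATRA libraries alone and the 2 that passed it in both groups were not called, so the count gives no direction for the family. The summed level rose from 18.1 ± 1.07 to 42.4 ± 3.49 CPM (SD, n = 3 each). CLDN4 encodes a claudin of simple epithelia that is also a receptor of a clostridial toxin. It had 3, 7 and 5 counts in the control libraries and 884, 774 and 809 in the ATRA libraries, a rise from 0.156 ± 0.0599 to 19.2 ± 1.49 CPM (SD, n = 3 each). The rise was 123-fold with a log2FC of 6.90 (standard error 0.197, edgeR adjusted p = 3.02e-16), a size that rests on 15 control counts in all.

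CLDN3, a sealing claudin that acts beside CLDN4 in many epithelia, was at 0 in all control libraries and had 244, 222 and 202 counts with ATRA. It reached 5.19 ± 0.404 CPM (SD, n = 3) and was at least 53.7-fold higher (edgeR adjusted p = 7.10e-12). CLDN6, known from embryonic epithelia, had 3, 2 and 4 counts without ATRA and 31, 32 and 20 with it, a 6.81-fold rise (log2FC 2.73, standard error 0.476, edgeR adjusted p = 4.14e-05). In the RefSeq order CLDN4 and CLDN3 are separated by 1 entry, whereas CLDN6 lies directly beside CLDN9, which had 1 count in a single library.

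The claudin with the most reads in the control group did not pass the test. CLDN12, an unusual claudin that is found outside epithelia too, had 475, 567 and 523 counts in the control libraries and 653, 922 and 520 with ATRA. Its level was 16.4 ± 1.12 and 16.2 ± 4.27 CPM (SD, n = 3 each), with ATRA replicate 2 above the control range and the other ATRA libraries below it (log2FC -0.01, standard error 0.141, edgeR adjusted p = 0.928). Its sign depended on the scaling, and without ATRA replicate 2 it passed as lower (log2FC -0.25, adjusted p = 0.0221). CLDN15, which forms pores for cations in the gut, had 32 to 41 counts in the control group and 35 to 38 with ATRA (log2FC -0.38, standard error 0.264, edgeR adjusted p = 0.196). In reads, CLDN12 made up 90.2% ± 1.25 of the claudin family without ATRA and 37.8% ± 7.16 with it, where CLDN4 took 45.5% ± 6.21 (SD, n = 3 each).

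The other claudins were too low to test. CLDN11, the claudin of myelin and of the testis barrier, had 0, 0 and 1 counts in the control libraries and 12, 5 and 4 with ATRA, a ratio of summed counts of 15.6 (95% exact interval 2.51 to 644, counting error only). CLDN10 had 2 counts in each control library and 0 in each ATRA library, within the floor. CLDN20 had 6 to 14 counts in the control group and 5 to 9 with ATRA. CLDN1, the main claudin of the epidermis, had at most 1 count in any library, and so had CLDN9 and CLDN19, while CLDN2 had at most 2.

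Markers of other cell types were read beside the claudins. Of 13 keratinocyte markers 12 were listed and 2 tested, with a summed level of 3.41 to 5.26 CPM in the control group and 5.99 to 6.96 CPM in the ATRA-treated group. Most of that sum was KRT10, which rose (log2FC 0.82). The basal keratins were low and moved down, as KRT5 had 2, 7 and 3 counts without ATRA and 0 in every ATRA library, and KRT14 had 20, 14 and 10 against 3, 0 and 0. TP63 had 1 count in all and EPCAM at most 5 in a library. In the ATRA libraries, where CLDN3 and CLDN4 were high, KRT5, KRT14, TP63 and EPCAM were at or near 0.

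Of 13 endothelial markers 10 were listed and 7 tested (2 higher, 2 lower, beside 40.9% and 38.7% of all genes tested). The summed level of the 10 was 111 to 116 CPM in the control group and 33.8 to 36.4 CPM with ATRA. In the control group most of that sum was ERG, which fell from a mean of 85.2 to 9.20 CPM (log2FC -3.21). EGFL7 fell too (log2FC -1.04), whereas TEK rose (log2FC 0.87). PECAM1, an adhesion molecule of endothelial junctions, was at 0 in all control libraries and had 242, 340 and 206 counts with ATRA. CDH5, ESAM and SOX17 had at most 3 counts in any library. Melanocyte and Schwann markers (4 of 9 listed) summed to 87.1 to 92.1 CPM and 40.3 to 41.7 CPM, nearly all of it S100B, with TYRP1 at 1 count in all. Leukocyte markers (7 of 9 listed) summed to 9.58 to 13.2 CPM and 41.7 to 44.6 CPM, mostly CD14 and CD68, with AIF1 at 1 count in all. Muscle markers (4 of 7 listed) summed to 131 to 154 CPM and 3.24 to 3.52 CPM, mostly CNN1. The part of any of these in the changes of the junction genes was not tested.

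**Figure D3:**
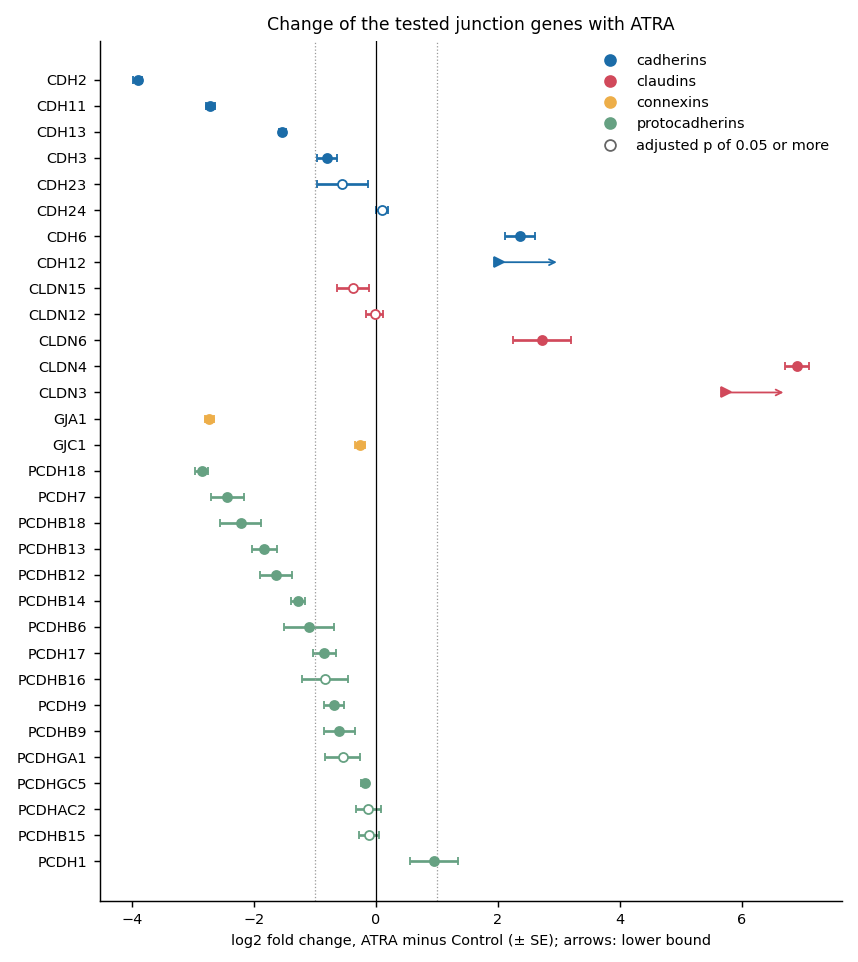
The log2FC of ATRA minus control for 31 tested members, with bars of 1 standard error, colours by family, open circles for an adjusted p of 0.05 or more, and dotted lines at a 2-fold change. Arrows at CDH12 and CLDN3 start at the lower bound set by 0 control counts. The 3 risen claudins lie to the right and CDH2, PCDH18, GJA1 and CDH11 farthest to the left.

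Among the connexins, GJA1 carried nearly all reads and fell. GJA1 encodes connexin 43, the gap junction protein of fibroblasts, heart muscle and many other cells. It had 54631, 63604 and 59503 counts in the control libraries and 10977, 13705 and 11454 in the ATRA libraries. The level went from 1859.5 ± 103 to 280.5 ± 28.6 CPM (SD, n = 3 each), 6.63-fold lower, with a log2FC of -2.73 (standard error 0.0754, edgeR adjusted p = 1.78e-16). The highest ATRA library was far under the lowest control library. With any 1 library left out the log2FC lay between -2.82 and -2.67.

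GJC1, which encodes connexin 45 of smooth muscle and the cardiac conduction system, had 525, 609 and 576 counts in the control group and 625, 684 and 616 with ATRA. Scaled by TMM this was a small fall from 17.9 ± 0.957 to 15.0 ± 0.527 CPM (SD, n = 3 each) (log2FC -0.26, standard error 0.0859, edgeR adjusted p = 0.0104). With library size only the direction turned to a log2FC of 0.22 (adjusted p = 0.0264), and with upper-quartile scaling the fall missed the threshold (adjusted p = 0.0597), so the direction of GJC1 rests on the scaling. GJA1 held 99.0% ± 0.0104 of the connexin reads without ATRA and 94.7% ± 0.336 with it, and GJC1 held 0.953% ± 0.00524 and 5.07% ± 0.316 (SD, n = 3 each).

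The other 8 connexins had at most 3 counts in any library and were at or under the floor in both groups. They include GJA5 of vessel walls and the atria, and GJB2, which builds gap junctions in the epidermis. GJB2 had 3 counts in ATRA replicate 2 and 0 in every other library. GJA5 had 1 count in each control library and 0 in each ATRA library. The group also held GJA3, GJA9, GJA10, GJD2 and GJD3. No change was detectable at this depth.

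Desmosomal cadherins were close to absent. DSC3 had 2, 0 and 0 counts in the control libraries and 0, 0 and 1 with ATRA, and DSG2 had 1 count in ATRA replicate 2 and 0 elsewhere. Neither was tested. The plaque protein desmoplakin (DSP), which ties these cadherins to keratin filaments, was at 0 in all control libraries and had 2, 1 and 2 counts with ATRA.

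Of 16 tested protocadherins 11 passed as lower (68.8%) and 1 as higher (6.25%), beside 38.7% and 40.9% of all genes. Among them the non-clustered PCDH18 and PCDH7 had the lowest log2FC. PCDH18, known from embryonic mesenchyme and brain, had 2570, 2782 and 2528 counts in the control libraries and 424, 625 and 423 in the ATRA libraries. Its level fell from 82.5 ± 3.66 to 11.4 ± 2.41 CPM (SD, n = 3 each), 7.24-fold (log2FC -2.85, standard error 0.107, edgeR adjusted p = 6.08e-14). PCDH7 had 70, 63 and 73 counts without ATRA and 18, 21 and 12 with it, 5.48-fold lower (log2FC -2.44, standard error 0.272, edgeR adjusted p = 1.68e-07). In neither case did the groups overlap.

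PCDH17 and PCDH9 fell less than 2-fold. PCDH17 had 111, 138 and 178 counts against 99, 132 and 89 with ATRA (log2FC -0.85, standard error 0.190, edgeR adjusted p = 0.000542), and PCDH9 had 122 to 150 against 96 to 126 (log2FC -0.68, standard error 0.167, edgeR adjusted p = 0.00114). Both missed the threshold with library size only (adjusted p = 0.0915 and 0.259). PCDH1, known from airway epithelium, was the tested protocadherin that rose, from 9, 14 and 8 counts to 31, 18 and 32 (log2FC 0.95, standard error 0.390, edgeR adjusted p = 0.0326). It had passed the expression filter through its ATRA libraries alone, so its call follows in part from that filter. Its groups overlapped after scaling, and the call was lost with the replicate number as a block (adjusted p = 0.0549) and without Control replicate 1 or 3 or ATRA replicate 1 or 3 (adjusted p from 0.0940 to 0.122).

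In the beta cluster the tested genes that passed the test were all lower. Of 13 listed PCDHB genes 8 were tested, 6 were lower and 2 did not pass, beside 38.7% lower and 40.9% higher among all genes. Among the lower genes, PCDHB6 had passed the filter through the control libraries alone. The summed level of all 13 went from 30.7 ± 0.882 to 14.2 ± 2.49 CPM (SD, n = 3 each). PCDHB18 had 70, 73 and 94 counts in the control libraries and 15, 13 and 40 in the ATRA libraries (log2FC -2.22, standard error 0.334, edgeR adjusted p = 8.99e-06), and without ATRA replicate 3 its log2FC was -2.95. PCDHB13 had 121, 154 and 192 against 47, 65 and 65 (log2FC -1.82, standard error 0.204, edgeR adjusted p = 1.72e-07). These genes and those named next follow each other closely in the RefSeq order, most with no other entry between them.

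PCDHB12 went from 94, 82 and 77 counts to 33, 55 and 22 (log2FC -1.63, standard error 0.269, edgeR adjusted p = 2.18e-05). PCDHB14, the tested member of the cluster with the most reads, went from 369, 372 and 381 counts to 201, 233 and 191 (log2FC -1.28, standard error 0.112, edgeR adjusted p = 5.89e-09). For PCDHB18, PCDHB13, PCDHB12 and PCDHB14 every ATRA library lay under every control library. PCDHB6 and PCDHB9 passed narrowly, with a log2FC of -1.09 (standard error 0.409, edgeR adjusted p = 0.0211) and -0.59 (standard error 0.253, edgeR adjusted p = 0.0391), but these calls depended on the method, the scaling and the libraries included. Both were lost with DESeq2 (adjusted p = 0.0511 and 0.0664), R's t.test function (0.177 and 0.114) and library size only (0.176 and 0.676), and PCDHB9 also with upper-quartile scaling (0.0681). PCDHB6 missed the threshold without Control replicate 1 or 2 or ATRA replicate 3 (adjusted p from 0.0789 to 0.113), and PCDHB9 without any library other than ATRA replicate 2 (adjusted p from 0.0506 to 0.147).

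Within the cluster PCDHB15 and PCDHB16 did not pass. PCDHB15 had 153, 161 and 146 counts in the control group and 148, 248 and 179 with ATRA, so its groups overlapped (log2FC -0.11, standard error 0.167, edgeR adjusted p = 0.548). PCDHB16 had 26, 27 and 38 counts against 20, 39 and 10 (log2FC -0.83, standard error 0.378, edgeR adjusted p = 0.0518) and passed as lower without ATRA replicate 2 (log2FC -1.43, adjusted p = 0.00138). PCDHB7, under the filter, had 10, 12 and 12 counts in the control libraries and 2, 0 and 2 in the ATRA libraries, a ratio of summed counts of 11.5 (95% exact interval 4.09 to 44.4, counting error only). PCDHB protein sequences are alike, so reads may have been divided between neighbours and single values of this cluster are uncertain.

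In the alpha and gamma clusters 1 of 3 tested genes passed the test, as lower, beside 38.7% lower and 40.9% higher among all genes. So few genes give no direction for these clusters. PCDHGC5 carried 77.0% ± 1.38 of all protocadherin reads without ATRA and 91.3% ± 1.29 with it (SD, n = 3 each). Its row is described as protocadherin gamma-C4, and the genes of this cluster share their last exons, so the row may hold reads of several gamma genes. It had 14084, 13208 and 14213 counts without ATRA and 16544, 17023 and 15763 with it, a level of 435 ± 23.7 against 383 ± 2.55 CPM (SD, n = 3 each) (log2FC -0.18, standard error 0.0572, edgeR adjusted p = 0.00733). The direction turned with library size only, to a log2FC of 0.30 (adjusted p = 0.000114). PCDHGA1 had 47, 54 and 50 counts against 61, 55 and 24 (log2FC -0.54, standard error 0.285, edgeR adjusted p = 0.0884). PCDHAC2, the tested member of the alpha cluster, had 86 to 104 counts against 91 to 161 (log2FC -0.12, standard error 0.201, edgeR adjusted p = 0.582).

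The remaining protocadherins were not tested. PCDH8 was at 0 in all control libraries and had 4, 8 and 8 counts with ATRA, at least 1.61-fold higher against the floor. A row of PCDH11X had 0 counts in the control group and 11, 1 and 4 with ATRA, which is at least 1.29-fold. PCDHA2 had 3, 3 and 8 counts against 8, 10 and 16, and PCDHB17 had 6, 10 and 13 against 5, 9 and 1. The others ranged from 0 to 13 counts, and PCDHB2, PCDHB5, PCDH12, PCDHA3, PCDHA12 and the other row of PCDH11X had at most 3 in any library.

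**Figure D4:**
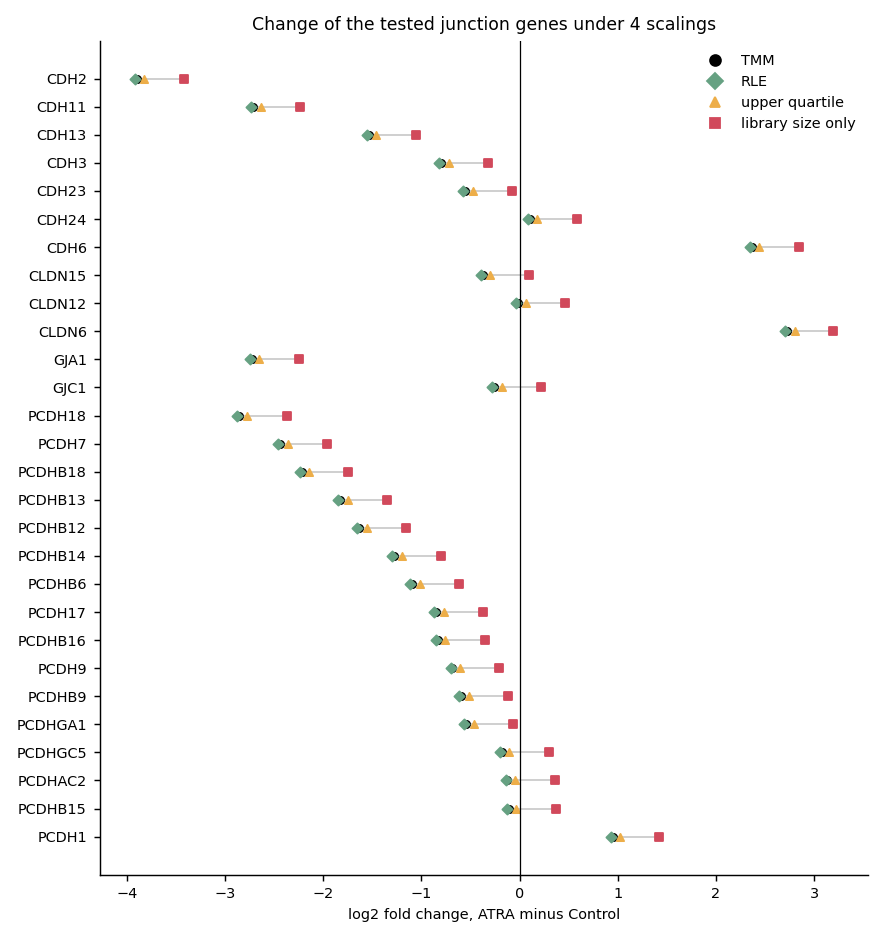
The log2FC of 28 tested members under TMM, RLE, upper-quartile and library-size-only scaling. CDH12, CLDN3 and CLDN4 are among those not drawn, because their changes exceed the axis. Library size only moves every gene to the right by about the same amount, which carries GJC1, PCDHGC5, PCDHAC2, PCDHB15, CLDN12 and CLDN15 across 0 and leaves CDH2, CDH11, GJA1 and PCDH18 far below it.

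Library size only moved the median log2FC of all tested genes to 0.52, against 0.04 with TMM. Members with a log2FC within about that distance of 0 have no direction apart from the scaling, whereas CDH2 kept a log2FC of -3.42, GJA1 of -2.25, CDH11 of -2.23 and CDH13 of -1.06. With library size only, 11 members were higher and 10 lower in place of 6 and 17.

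Partner genes were read from 5 lists, which hold plaque proteins, further adhesion molecules, pannexins, and transcription and splicing factors. In all, 51 genes were listed and 35 tested. Of these 12 passed as higher and 17 as lower, beside 40.9% higher and 38.7% lower among all genes tested, so the lists together are not set apart from the background by these counts. Adherens junction partners had 9 of 12 tested genes lower, with a median log2FC of -0.72. CTNNB1 encodes beta-catenin, which binds the cadherin tail and also carries the WNT signal. It fell from 837 ± 18.2 to 274 ± 18.8 CPM (SD, n = 3 each), with 25375, 27208 and 27413 counts in the control libraries and 10914, 12731 and 11576 with ATRA (log2FC -1.61, standard error 0.0622, edgeR adjusted p = 2.66e-14).

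Alpha-catenin (CTNNA1), which joins beta-catenin to actin, fell from 412 ± 6.06 to 205 ± 9.92 CPM (SD, n = 3 each, log2FC -1.01). The p120-catenin (CTNND1), which holds cadherins at the membrane, had a log2FC of -0.91, and vinculin (VCL), which reinforces the link to actin, of -2.05. The neuronal alpha-catenin CTNNA2 had the largest fall of the list, from 202, 198 and 158 counts to 4, 2 and 4 (log2FC -6.17, standard error 0.296, edgeR adjusted p = 7.49e-13). Nectins, adhesion molecules that start adherens junctions, moved in opposite directions. NECTIN4, a nectin of epithelia, rose from 16, 7 and 19 counts to 143, 131 and 138 (log2FC 2.85) and NECTIN2 rose with a log2FC of 1.502, while NECTIN1 and NECTIN3 had a log2FC of -0.70 and -0.72.

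Tight junction partners had 5 of 9 tested genes higher and 3 lower, with a median log2FC of 0.35. Among all genes tested 40.9% were higher and 38.7% lower, and so few genes give no direction for the list. The scaffold protein TJP1 (ZO-1) rose with a log2FC of 0.35. The adhesion molecule F11R (JAM-A) rose from 25, 23 and 17 counts to 177, 157 and 153 (log2FC 2.47, standard error 0.218, edgeR adjusted p = 6.82e-09), and tricellulin (MARVELD2) had a log2FC of 2.01. JAM2, the related molecule of vessels and fibroblasts, fell with a log2FC of -0.73. Occludin (OCLN), the companion of claudins in the strands, was under the filter with 6, 3 and 7 counts in the control libraries and 9 in each ATRA library.

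Of the desmosome plaque partners 4 of 8 listed genes were tested. Plakoglobin (JUP), shared by desmosomes and adherens junctions, had 178, 229 and 221 counts against 242, 217 and 167 with ATRA (log2FC -0.44, standard error 0.145, edgeR adjusted p = 0.0104), but library size only turned the sign. PKP4, a plakophilin relative that also sits at adherens junctions, rose with a log2FC of 0.93. PERP, a membrane protein of desmosomes that p53 also induces, went from 2, 0 and 3 counts to 28, 38 and 22, a ratio of summed counts of 13.1 (95% exact interval 5.39 to 41.2, counting error only). PKP2 had 3 counts in ATRA replicate 1 and 0 elsewhere, and EVPL had 0 counts in the control group and 7, 7 and 3 with ATRA.

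Pannexins form channels related to connexins. PANX2 rose with a log2FC of 0.46 (standard error 0.0852, edgeR adjusted p = 8.47e-05), PANX1 did not pass the test, and PANX3 was too low to test. Of 8 tested transcription and splicing factors of the epithelial and mesenchymal states, 4 were lower and 1 higher. Among all genes tested 38.7% were lower and 40.9% higher. SNAI2 (Slug), a repressor of epithelial cadherin genes, fell from 211 ± 6.32 to 46.2 ± 4.41 CPM (SD, n = 3 each, log2FC -2.19, standard error 0.0685, edgeR adjusted p = 1.14e-15). ZEB1 and ZEB2, which act on the same targets, had a log2FC of -0.89 and -0.82. GRHL1, an activator of desmosomal genes, rose from 17, 31 and 33 counts to 70, 76 and 56 (log2FC 0.89, standard error 0.270, edgeR adjusted p = 0.00606). Its call was lost with R's t.test function (adjusted p = 0.0567). GRHL2, OVOL2 and the splicing factor ESRP1 had at most 6 counts in any library. The other gene that fell was ESRP2, a splicing factor of epithelial cells, with 289, 257 and 267 counts against 214, 177 and 174 (log2FC -0.96, standard error 0.129, edgeR adjusted p = 2.07e-06).

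**Figure D5:**
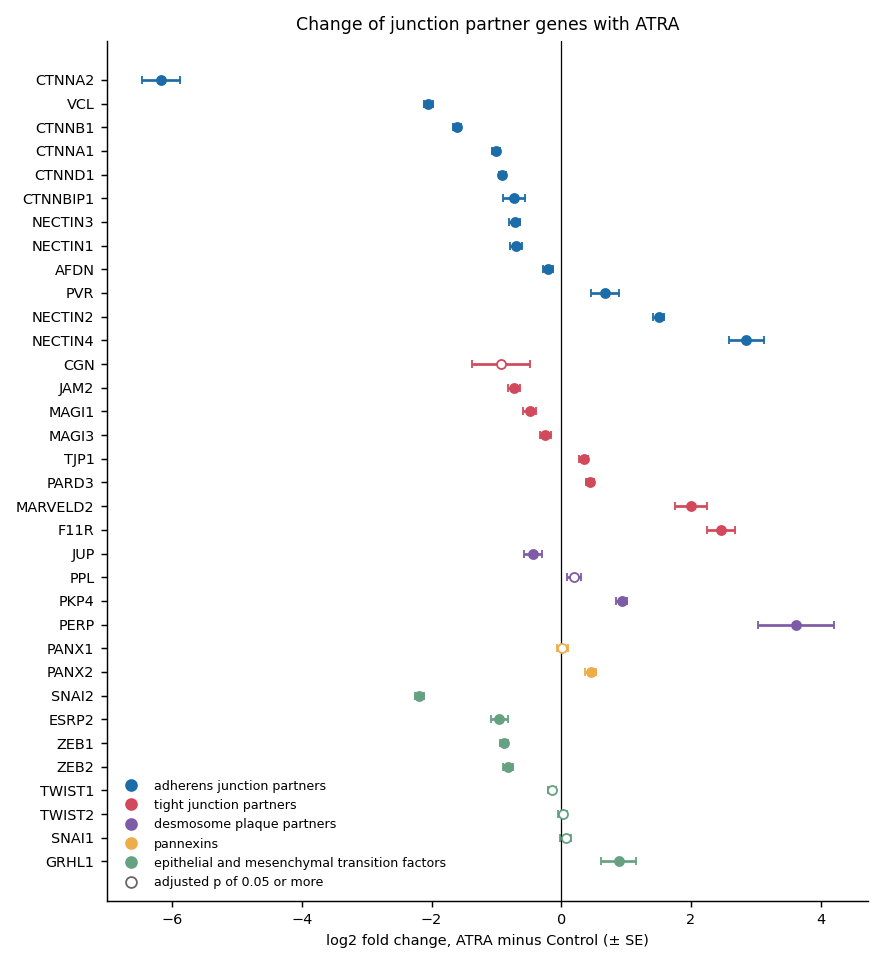
The log2FC of ATRA minus control for 34 tested partner genes, with bars of 1 standard error, colours by list and open circles for an adjusted p of 0.05 or more. Most adherens junction partners lie to the left of 0, whereas F11R, MARVELD2, NECTIN4 and PERP lie to the right.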

How the data were processed

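RNA-seq was performed on 3 control and 3 ATRA-treated cultures of SHF-DPCs. According to the methods, poly(A) RNA was enriched and fastp and TrimGalore served to clean the reads. HISAT2, featureCounts, and DESeq2 are named in the submitters' processing notes. Versions of these 3, the genome build, and the strand setting are not given in the sources used here. The authors deposited a single table of unnormalized read counts per gene, with annotation columns. All 6 count columns were used.

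Members were taken by symbol from all 15944 genes, every one of which matched the RefSeq table of assembly ARS1.2. It served for names and gene order only, since the build of the files is not named, and no sequence was available for printing. Some genes are counted in the totals but not reported here by name. Members and lists were chosen with earlier results of these data known. Genes were filtered with filterByExpr by group, scaled by TMM, and tested with the quasi-likelihood test of edgeR (robust, two-sided) over 12588 genes, with no covariate, since the methods' t.test function does not suit counts. The standard error is the absolute log2FC over the square root of F. A group with 0 counts in every library was set to 3 counts in the library where these weigh most, which gives a lower bound. A group with 1 to 3 counts was compared by summed counts with an exact 95% interval. Counts in all libraries were given for up to 5 members per family and direction that passed the test with an absolute log2FC above 1 and a mean of 1 CPM or more in a group, for the 2 most abundant per family, and for CDH1, CDH2, CDH5, CDH11, GJA1, and CLDN1. Of the partner lists, the genes that moved most in each direction and core members are named. Some of them have counts in all libraries, and the others a mean level or a log2FC only. Values of the other members are given so that every member is accounted for. Scripts were tested on simulated data. Alternatives are described in the closing section. The tools were edgeR 4.0.16, DESeq2 1.42.0, and limma 3.58.1 under R 4.3.3, with matplotlib 3.10.9 for plots.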

Additional observations from a re-analysis of the deposited data

How the results depend on the processing

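Of 32 tested members and 20 partner genes followed through 17 alternatives, 26 and 19 never changed sign. Of the 23 members called, 15 (5 higher, 10 lower) kept the call in every alternative that tested them, and these include CDH2, CDH11, CDH13, CDH6, CLDN3, CLDN4, GJA1, PCDH18, PCDH7, and PCDHB14. CDH12 and CLDN6 were among the 15 but were not tested when 3 libraries had to reach 1 CPM. The cause of the changes below was not tested, except that a filter changes which genes are tested.

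Library size only gave 11 members higher and 10 lower, 2 connexins higher and 1 lower, 2 protocadherins higher and 6 lower, and 19 partner genes higher. It reversed CLDN12 (log2FC 0.47), CLDN15 (0.10), GJC1 (0.22), PCDHAC2 (0.36), PCDHB15 (0.37), PCDHGC5 (0.30), and JUP (0.043). With upper-quartile scaling 1 connexin was lower and CLDN12 had a log2FC of 0.062. Without a filter 8 members were more than 2-fold higher, 3 protocadherins higher, and 1 claudin lower. Requiring 1 CPM in 3 libraries left 3 members higher, all 3 more than 2-fold, with 1 cadherin and 0 protocadherins higher. DESeq2 gave 8 members more than 2-fold higher and 2 protocadherins higher, and R's t.test function gave 3 and 0. PCDH8, CLDN11, PCDHB7, and a row of PCDH11X, which the main filter removed, passed with DESeq2 and without a filter.

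Without each library in turn, 5 to 6 members were higher and 15 to 22 lower, 5 to 6 and 10 to 14 more than 2-fold, with 0 to 1 protocadherins higher and 0 to 1 claudins lower. The most lower calls came without ATRA replicate 2, whose removal added CDH23, CLDN12, PCDHGA1, PCDHB16, and PCDHB7. Over these omissions the log2FC of CLDN12 ran from -0.25 (without ATRA replicate 2) to 0.13, of PCDHAC2 from -0.39 to 0.035, and of PCDHB15 from -0.32 to 0.043, so all 3 changed sign.

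The replicate number as a block left 0 protocadherins higher, since PCDH1 lost its call (adjusted p = 0.0549), and changed no other member's call. Same-numbered libraries did not deviate together (correlations across genes of 0.0892, 0.0299, and -0.0764, where genes are not independent), and not every library correlated best with its own. Whether same-numbered libraries share an animal is not stated in the sources used here, so the number was not used as a pairing.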
